A study of Mus musculus with 12 samples.

Results

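Globin and other erythroid genes were followed in RNA-seq of mouse mandibular lymph nodes: the adult α-globin genes Hba-a1 and Hba-a2, the adult β-globin genes Hbb-bs and Hbb-bt, and Alas2, Slc4a1, Ahsp and Bpgm. The 8 symbols were taken as listed, in a list chosen with earlier results of these data known. Each was read from the most-read Ensembl ID of that symbol. Of the 8 genes 7 matched an ID in a table of 56941 IDs, of which 51948 carried a symbol. Ahsp, the chaperone of free α-globin, was not matched and is not analysed here.

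The study compared wild-type mice (WT) with mice in which the microRNA miR-451a is knocked out (KO), all of them sensitized to the contact allergen 1-fluoro-2,4-dinitrobenzene (DNFB) by 100 µl of a 0.5% solution on shaved abdominal skin on days 0, 1 and 2. In the sensitized groups, WT_se and KO_se, nodes were collected on day 9 without a challenge. In the challenged groups, WT_DTH and KO_DTH (delayed-type hypersensitivity), the left ear received 20 µl of 1% DNFB on day 9 and nodes were collected 24 hours later, on day 10. Each group held 3 libraries. Strain, sex, age and the design of the knockout allele are not given in the sources used here, and the challenge and the later day of collection cannot be told apart. The deleted microRNA gene was not analysed here, so the genotype labels were not checked against it.

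Haemoglobin is a tetramer of α- and β-globin chains, each holding a haem, and reticulocytes and young red cells carry globin mRNA long after the nucleus has been lost. Alas2 makes the first, rate-setting enzyme of haem synthesis in erythroid cells, Slc4a1 the anion exchanger band 3 of the red cell membrane, and Bpgm the enzyme that makes 2,3-bisphosphoglycerate, which lowers the oxygen affinity of haemoglobin. miR-451a is itself an erythroid microRNA, made without Dicer from a hairpin transcribed under GATA1 and abundant in mature red cells.

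The deleted microRNA is shown first because the genotype comparison rests on it. Its mature strand, from RefSeq on GRCm38.p6 at chr11:78073186-78073207 on the plus strand, has the seed (bases 2 to 8) in capitals.
miR-451a: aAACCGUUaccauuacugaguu
The letters that pair with this seed, AACGGTT, occurred 0 times in every annotated coding transcript of the 7 genes. For comparison, a transcript of Ywhaz, a known target of miR-451a in erythroid maturation, held up to 2. A seed match is a description of the letters and not of binding.

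The promoters are shown because these genes moved together across libraries. Each window holds the 250 bases before the RefSeq start site on GRCm38.p6, 5′ to 3′ on the strand of the gene, with every match on either strand to the following motifs in capitals: the GATA motif (the word AGATA or the word TGATA, followed by A or by G), the word CACCC bound by KLF1 and related factors, the word CCAAT, and the word TATAA. RefSeq windows were given for 6 of the 8 genes, all but Slc4a1 and Ahsp. That of Hba-a2 (chr11:32296242-32296491, plus strand) is not printed, since it equals that of Hba-a1 over all 247 bases the pair share when shifted by 3.
Hba-a1 (chr11:32283422-32283671, plus strand): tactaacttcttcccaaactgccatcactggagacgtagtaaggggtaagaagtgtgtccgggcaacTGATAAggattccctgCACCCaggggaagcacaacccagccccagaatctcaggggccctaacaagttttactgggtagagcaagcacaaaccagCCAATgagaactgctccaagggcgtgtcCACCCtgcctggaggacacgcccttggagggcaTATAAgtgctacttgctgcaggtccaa
Hbb-bs (chr7:103827929-103828178, minus strand): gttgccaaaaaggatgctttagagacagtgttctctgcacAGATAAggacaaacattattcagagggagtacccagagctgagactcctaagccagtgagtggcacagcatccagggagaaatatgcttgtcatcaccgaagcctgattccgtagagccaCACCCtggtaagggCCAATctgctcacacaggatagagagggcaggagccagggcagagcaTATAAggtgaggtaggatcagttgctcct
Hbb-bt (chr7:103813924-103814173, minus strand): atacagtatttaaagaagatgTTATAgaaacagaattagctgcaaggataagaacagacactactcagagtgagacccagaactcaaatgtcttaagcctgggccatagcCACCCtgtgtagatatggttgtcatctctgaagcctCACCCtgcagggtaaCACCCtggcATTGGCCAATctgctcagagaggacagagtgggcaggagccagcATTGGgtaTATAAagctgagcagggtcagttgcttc
Alas2 (chrX:150547167-150547416, plus strand): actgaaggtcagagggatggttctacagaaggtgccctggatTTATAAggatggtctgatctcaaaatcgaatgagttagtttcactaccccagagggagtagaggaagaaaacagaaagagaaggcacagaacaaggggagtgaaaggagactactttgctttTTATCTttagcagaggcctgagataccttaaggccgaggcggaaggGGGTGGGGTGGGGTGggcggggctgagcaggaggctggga
Bpgm (chr6:34476106-34476355, plus strand): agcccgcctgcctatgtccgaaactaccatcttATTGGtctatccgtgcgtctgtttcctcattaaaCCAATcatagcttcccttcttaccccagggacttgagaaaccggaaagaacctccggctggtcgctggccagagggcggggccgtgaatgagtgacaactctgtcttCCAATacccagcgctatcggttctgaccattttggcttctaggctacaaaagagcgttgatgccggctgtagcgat

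All 4 motifs were found in the windows of Hba-a1, Hba-a2 and Hbb-bs, as in 355 (1.08%) of 32851 windows of this length. In Hba-a1 the TGATAA lay 183 to 178 bases before the start, the CCAAT 88 to 84 and the TATAA 27 to 23. In Hbb-bs the AGATAA lay 210 to 205 bases before the start, a CACCC 90 to 86, the CCAAT 76 to 72 and the TATAA 29 to 25. Hbb-bt, the second β gene, had 3 CACCC and 3 CCAAT matches and no GATA word. Alas2 held a GATA word on the minus strand, 3 adjoining CACCC matches on the minus strand and a TTATAA that counts as TATAA on both strands and so overlaps itself. Bpgm, which is also expressed outside the red cell lineage, held 3 CCAAT matches and none of the other words. Over all windows a GATA word was present in 26.5%, CACCC in 52.0%, CCAAT in 33.8% and TATAA in 22.8%, so a single match is common.

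Libraries held 36946696 to 58405576 estimated counts. All 10 lymph node markers, among them Cd3e, Ms4a1 and Ccr7, were present in every group. Transcripts of salivary gland, the tissue that lies against this node, were also present, with 19 of 20 markers matched and their summed level at 18216 to 161720 CPM over the libraries, where CPM are counts per 1000000 of the library total. The erythroid label held for the abundant late transcripts and less so for early ones. Klf1, the transcription factor that drives adult β-globin, ranged from 0 to 0.295 CPM, and Gata1, the master erythroid factor, from 0.703 to 1.49. Pklr, the red cell pyruvate kinase, and the embryonic globins Hba-x, Hbb-y and Hbb-bh2 had a count of 0 in all 12 libraries, which allows 0.0527 to 0.0864 CPM per library at 3 counts. The library totals behind CPM were first scaled by the trimmed mean of M-values (TMM), and limits from a count of 0 cover counting error only.

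Per length of transcript, Hbb-bs stood highest. Its mean over the 12 libraries was 3121 RPKM (estimated counts scaled to the merged exon length and to the library total, without TMM), followed by 1879 RPKM for Hba-a1, 1717 for Hba-a2 and 1527 for Hbb-bt. Alas2 was far lower at 27.4, Bpgm at 8.79 and Slc4a1 at 0.181 RPKM. Hbb-bs lay above Hba-a1 and Hba-a1 above Hba-a2 in 12 of 12 libraries, while Hba-a2 lay above Hbb-bt in 10 of 12, all but replicates 1 and 3 of KO_se. Between libraries each globin gene varied more than these neighbours differed from each other, and Hba-a1 spanned 433 to 4367 RPKM. The order within a pair of copies is uncertain. The compared transcripts of Hba-a1 and Hba-a2 differed at 1 of 538 aligned bases and those of Hbb-bs and Hbb-bt at 43 of 625, with shared runs of 415 and 430 bases, so counting could split their reads either way.

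**Figure D1:**
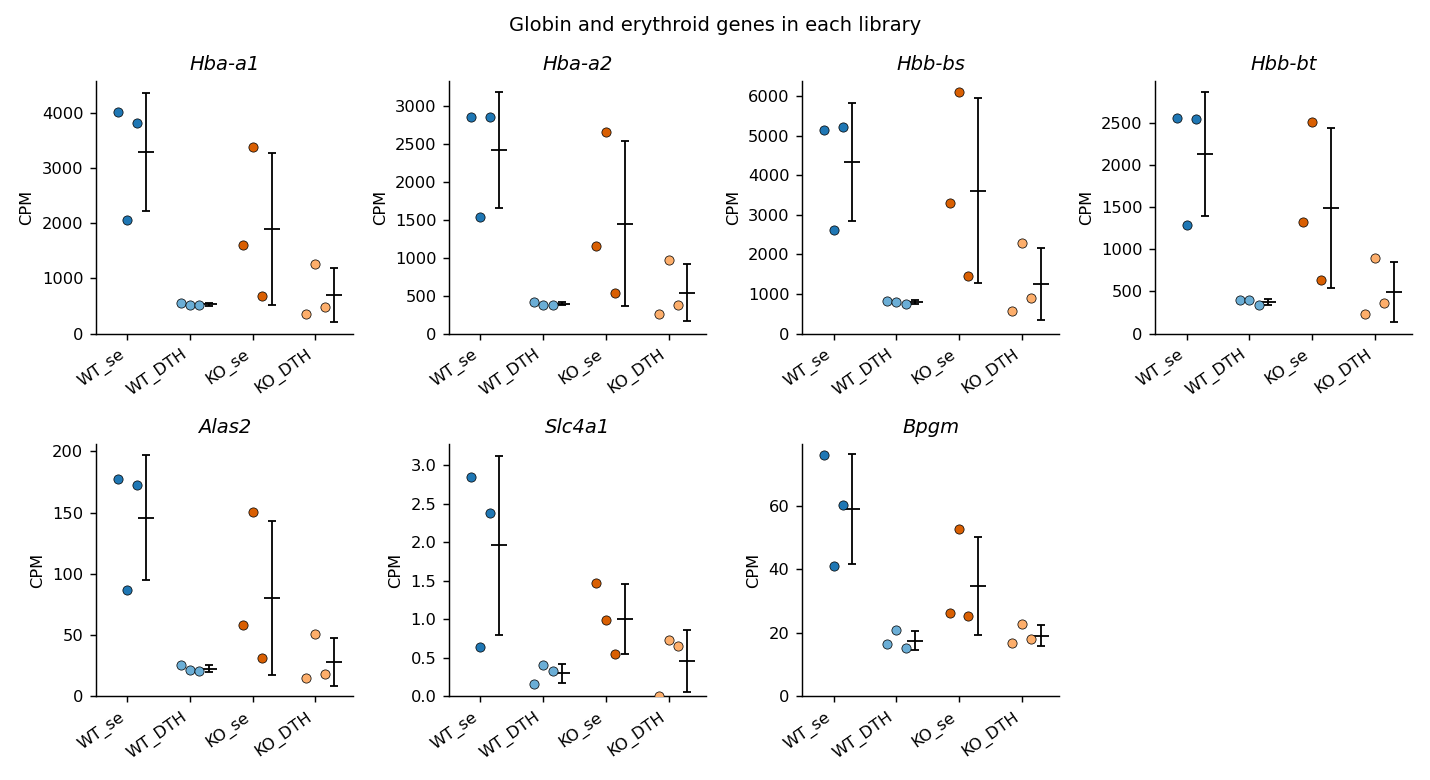
CPM (y axis, from 0) of each of the 7 genes in the 4 groups; points are the 3 libraries of a group and the bar beside them is the mean with SD. WT_DTH libraries cluster low in every panel, and in both knockout groups replicate 2 lies highest for the globins, Alas2 and Bpgm.

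In wild-type nodes the transcripts of α-globin, β-globin, Alas2 and Bpgm were lower 24 hours after ear challenge. Of the 7 genes tested 6 fell, where 8.97% of all 20034 genes tested fell and 9.77% rose. Their median log2 fold change was −2.62, against −0.01 over all genes tested. Tests are edgeR's quasi-likelihood test with Benjamini-Hochberg adjustment over all genes tested, at a threshold of 0.05. Scaled by library totals alone, the median of all genes moved to 0.37, 6199 genes rose and 952 fell, in place of 1957 and 1798, and the same 6 genes fell. In bulk RNA, fewer cells of the red cell lineage and less RNA per cell cannot be told apart.

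Hba-a1 (ENSMUSG00000069919) stood at 4014, 2056 and 3808 CPM in WT_se replicates 1 to 3 and at 563, 523 and 514 CPM in WT_DTH. Every sensitized library lay above every challenged one, and the challenged libraries lay close together. The mean fell from 3293 ± 1076 to 533 ± 26.05 CPM (SD, n = 3 each), a log2 fold change of −2.63 ± 0.55 (SE, adjusted p = 0.0057).

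Hba-a2 (ENSMUSG00000069917), the near-identical second α gene, showed the same order, with 2867, 1536 and 2856 CPM in WT_se and 416, 384 and 378 CPM in WT_DTH. Its groups did not overlap either, and its log2 fold change of −2.62 ± 0.55 (adjusted p = 0.00578) was close to that of the other copy, with which it shares nearly all of its sequence.

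Hbb-bs (ENSMUSG00000052305), the most abundant of the 7, had 5152, 2606 and 5228 CPM in WT_se and 834, 808 and 747 CPM in WT_DTH. The WT_se libraries were all above the WT_DTH ones, with replicate 2 the lowest of its group. The log2 fold change was −2.44 ± 0.53 (adjusted p = 0.00727).

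Hbb-bt (ENSMUSG00000073940) had 2550.1, 1281 and 2545 CPM in WT_se and 397, 394 and 338 CPM in WT_DTH. The groups were apart here too, and the gene fell by 2.50 ± 0.52 on the log2 scale (adjusted p = 0.00571).

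Alas2 (ENSMUSG00000025270) fell with the globins it supplies with haem. It had 178, 86.8 and 173 CPM in WT_se and 25.7, 21.8 and 20.3 CPM in WT_DTH, so that WT_se replicate 2 was again low in its group but above all challenged libraries. The log2 fold change was −2.69 ± 0.56 (adjusted p = 0.00541).

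Bpgm (ENSMUSG00000038871) had 75.8, 41.0 and 60.1 CPM in WT_se and 16.6, 20.9 and 15.1 CPM in WT_DTH, with no overlap. Its log2 fold change of −1.75 ± 0.28 had the smallest size and the smallest adjusted p of the 7 (0.00128).

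Slc4a1 (ENSMUSG00000006574) was read too thinly to settle. It had 99, 24 and 100 counts in WT_se and 7, 22 and 19 counts in WT_DTH, or 2.85, 0.643 and 2.38 against 0.159, 0.404 and 0.334 CPM. The groups did not overlap, but replicate 2 of WT_se lay near the challenged libraries. The log2 fold change of −2.69 ± 0.94 did not pass (adjusted p = 0.0659), although it passed when only the 2 wild-type groups were fitted, which made 7 of 7, and in the DESeq2 Wald test, which also called 7.

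Other transcripts moved with these genes in wild type, where 8.97% of all genes fell. The 13 mitochondrially encoded genes all fell, their share of counts being 19.1, 18.1 and 13.8% in WT_se and 4.37, 5.84 and 5.17% in WT_DTH, and 16 of 19 salivary markers fell, from a summed level of 80364 to 161720 CPM to one of 18216 to 30164 CPM. With a salivary score as covariate 0 of the 7 erythroid genes passed, at log2 fold changes of −2.30 to −1.51 and adjusted p of 0.215 to 0.825. The summed salivary level did not overlap between WT_se and WT_DTH, so this fit can hardly separate salivary content from challenge. For Hba-a1 the SE was 1.08 with the score and 0.55 without it, at log2 fold changes of −2.18 and −2.63. The part of carried-along salivary tissue in the fall was not tested. The summed level of the 10 platelet and megakaryocyte genes, which mark another product of the blood, was 37.7 to 45.7 CPM in WT_se and 44.1 to 47.2 CPM in WT_DTH. Most of that sum was Itgb3, at 26.5 to 33.5 CPM in WT_se and 36.7 to 37.6 CPM in WT_DTH. Without Itgb3 the other 9 genes summed to 8.1 to 13.6 CPM in WT_se and 6.52 to 9.6 CPM in WT_DTH, ranges that overlap. Of the 9 platelet genes tested 7 had a negative log2 fold change, with a median of −1.22, and 0 fell. Leaving out the library of highest globin share in each group kept all 6 calls among the 7 erythroid genes.

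**Figure D2:**
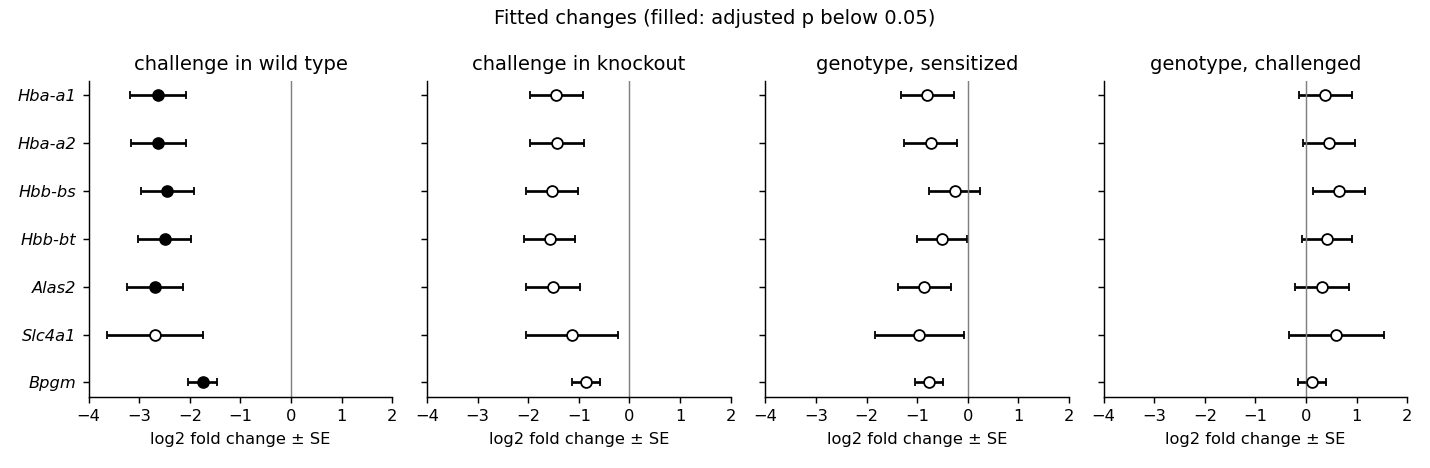
Fitted log2 fold change (x axis) with SE for each gene in the 4 comparisons of groups; filled points passed an adjusted p of 0.05. Only the panel for challenge in wild type holds filled points, 6 of 7, and the signs are negative in the first 3 panels and positive in the last.

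In knockout nodes the same genes had lower means after challenge, but the libraries overlapped and 0 of 7 passed, where 3.86% of all genes fell and 5.81% rose. At an unadjusted p under 0.05 the edgeR test gave 6 of 7, and the DESeq2 Wald test called 1, Hbb-bt. The median log2 fold change was −1.44, against −0.00 over all genes tested.

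Hba-a1 had 1602, 3388 and 682 CPM in KO_se and 351, 1257 and 477 CPM in KO_DTH. Replicate 3 of KO_se lay below replicate 2 of KO_DTH, and this crossing recurred in the other globin genes and in Alas2. The log2 fold change was −1.44 ± 0.53 (adjusted p = 0.108).

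Hba-a2 had 1154, 2667 and 540.0 CPM in KO_se and 265, 969 and 381 CPM in KO_DTH, with a log2 fold change of −1.43 ± 0.53 (adjusted p = 0.111). Hbb-bs had 3288, 6091 and 1458 CPM in KO_se and 570.1, 2290.1 and 889.96 CPM in KO_DTH, with a log2 fold change of −1.53 ± 0.52 (adjusted p = 0.0823). Replicate 2 was the highest library of both knockout groups for each of these genes.

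Hbb-bt had 1326, 2508 and 629.6 CPM in KO_se and 234, 902 and 359 CPM in KO_DTH (log2 fold change −1.58 ± 0.51, adjusted p = 0.0691). Alas2 had 58.1, 151 and 31.4 CPM in KO_se and 15.2, 50.9 and 18.2 CPM in KO_DTH (−1.51 ± 0.54, adjusted p = 0.0978). The spread within KO_se was thus several-fold for both.

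Bpgm differed from the globins in that its knockout groups did not overlap, with 26.3, 52.6 and 25.4 CPM in KO_se and 16.7, 22.8 and 17.9 CPM in KO_DTH. The log2 fold change of −0.86 ± 0.28 missed the threshold (adjusted p = 0.0716). Slc4a1 had 82, 46 and 26 counts in KO_se and 0, 30 and 27 counts in KO_DTH, and its log2 fold change of −1.14 ± 0.91 did not pass (adjusted p = 0.504).

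The knockout result turned on single libraries. Without replicate 3 of KO_se, the lowest of its group, 5 of 7 genes fell, namely the 4 globin genes and Alas2, at log2 fold changes of −1.95 to −1.83. Without replicate 2 of KO_DTH, the highest of its group, the same 5 genes fell at −2.33 to −2.17. With any other knockout library left out 0 of 7 passed. Of the genes that moved with the erythroid ones in wild type, 0 of 13 mitochondrially encoded genes passed here, and 2 of 19 salivary markers rose. In this comparison 3.86% of all genes fell and 5.81% rose. The part of these mitochondrial and salivary transcripts in the knockout values was not tested.

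The response was not shown to differ between genotypes. The interaction, which is the change with challenge in the knockout minus that in wild type, was positive in all 7 genes with a median of 1.18, but 0 of 7 passed, where 2.11% of all genes did in either direction. At an unadjusted p under 0.05 there was 1, Bpgm (interaction 0.89 ± 0.39, adjusted p = 0.28), and the DESeq2 Wald test called 0. For Hba-a1 the interaction was 1.18 (adjusted p = 0.491) and for Hbb-bs 0.91 (adjusted p = 0.614).

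Between genotypes in the sensitized state no gene passed. The count was 0 of 7, where 1.4% of all genes lay lower and 3.76% higher in KO_se, with 1 at an unadjusted p under 0.05, Bpgm, and 0 in the DESeq2 Wald test. KO_se means were 1891 ± 1376 CPM for Hba-a1 against 3293 ± 1076 in WT_se (log2 fold change −0.80 ± 0.52, adjusted p = 0.409) and 3612 ± 2334 against 4329 ± 1492 CPM for Hbb-bs (−0.26 ± 0.51, adjusted p = 0.825). The knockout libraries spanned the wild-type range in Hbb-bs, since KO_se replicate 2 held the highest level of all 12 libraries and KO_se replicate 3 lay below every WT_se library. Alas2 gave −0.86 ± 0.52 (adjusted p = 0.372) and Bpgm −0.76 ± 0.28 (adjusted p = 0.125). Without KO_se replicate 2 Bpgm passed, at −1.19 (adjusted p = 0.0291). The sign for Hbb-bs turned to 0.12 without KO_se replicate 3.

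In the challenged state all 7 log2 fold changes of knockout over wild type were positive, with a median of 0.41, and 0 of 7 passed. Of all genes 0.514% were higher and 0.0849% lower, 0 of the 7 had an unadjusted p under 0.05 and the DESeq2 Wald test called 0. Hba-a1 had 695 ± 491 CPM in KO_DTH against 533 ± 26.05 in WT_DTH (0.38 ± 0.52, adjusted p = 0.835). Except for Slc4a1, these signs rested on replicate 2 of KO_DTH, which alone lay above all 3 wild-type libraries for Hba-a1, Hba-a2, Hbb-bt and Alas2. Without it Hba-a1 gave −0.37, Hba-a2 −0.28, Hbb-bt −0.34, Hbb-bs −0.13, Alas2 −0.44 and Bpgm −0.020.

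Summing the 4 adult globin genes removes the uncertainty of the split between copies. Globin took 1.29, 0.639 and 1.30% of all counts in WT_se and 0.259, 0.236 and 0.226% in WT_DTH. In the knockout it took 0.706, 1.53 and 0.325% in KO_se and 0.142, 0.476 and 0.237% in KO_DTH. The wild-type groups were apart, and the knockout groups crossed at KO_se replicate 3 and KO_DTH replicate 2. The mean share was 4.48-fold higher in WT_se than in WT_DTH (1.08 ± 0.379 and 0.240 ± 0.0168%, a difference of −0.836 points with challenge, two-sided exact permutation p = 0.1, adjusted over 4 comparisons 0.4). In the knockout it was 3.0-fold higher in KO_se than in KO_DTH (0.855 ± 0.618 and 0.285 ± 0.172%, −0.570 points, exact permutation p = 0.2, adjusted 0.4). No p below 0.1 can be reached with 3 libraries in each group. Knockout minus wild type came to −0.221 points when sensitized (exact permutation p = 0.7, adjusted 0.8) and to 0.0446 points when challenged (exact permutation p = 0.8, adjusted 0.8).

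**Figure D3:**
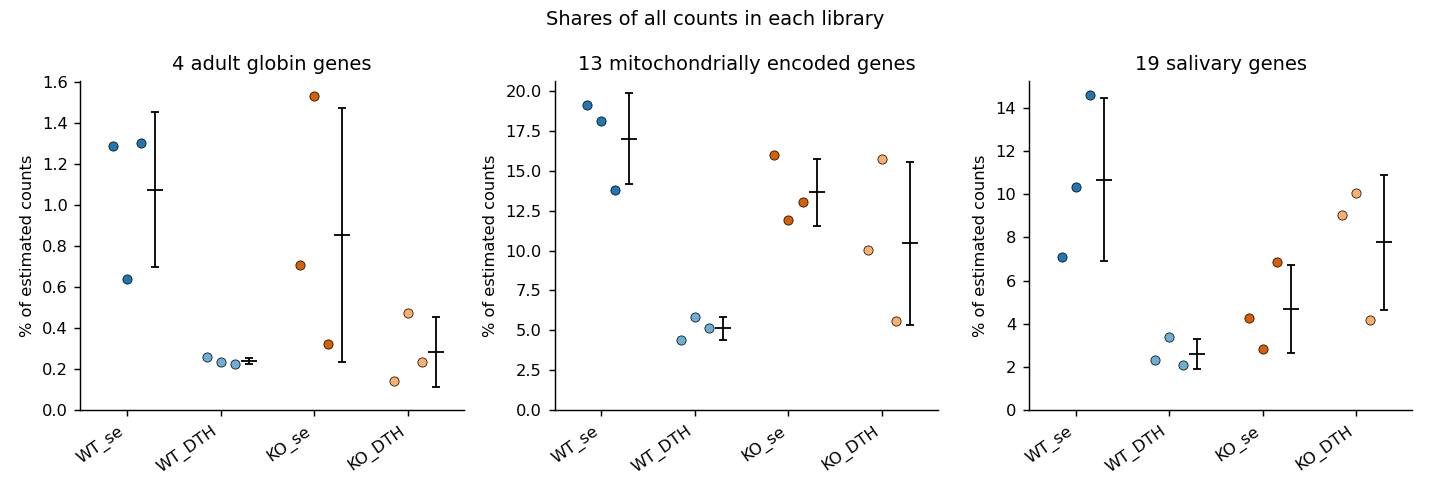
Percent of all estimated counts (y axis, from 0) held by the 4 adult globin genes, the 13 mitochondrially encoded genes and the 19 matched salivary markers; points are libraries and bars the mean with SD of 3. The mean of each share is lowest in WT_DTH, while in the knockout the salivary share has a higher mean in KO_DTH (7.76%) than in KO_se (4.67%) and the globin share a lower one.

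Within the globins, the balance between the β genes set the libraries of the genotypes apart. The ratio of Hbb-bt to Hbb-bs counts was 0.495, 0.492 and 0.487 in the WT_se libraries and 0.476, 0.487 and 0.452 in the WT_DTH ones, against 0.403, 0.412 and 0.432 in KO_se, and 0.410, 0.394 and 0.404 in KO_DTH. All 6 knockout libraries thus lay below all 6 wild-type libraries, with group means of 0.491 ± 0.0041, 0.472 ± 0.0178, 0.416 ± 0.0147 and 0.403 ± 0.0081 (SD, n = 3 each). This ratio was looked at after the data had been seen and is given without a test, and the part of reads shared by the copies in it was not tested.

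The ratio of α- to β-globin counts was 0.893, 0.924 and 0.857 in WT_se and 0.795, 0.755 and 0.821 in WT_DTH, compared with 0.597, 0.704 and 0.585 in KO_se, and 0.765, 0.697 and 0.687 in KO_DTH. Sensitized wild-type libraries were the highest and sensitized knockout libraries mostly the lowest, with no overlap between those groups. The challenged groups overlapped, since KO_DTH replicate 1 lay above WT_DTH replicate 2. The mean ratio was 0.892 ± 0.033 in WT_se and 0.629 ± 0.065 in KO_se (SD, n = 3 each), given without a test. Since these sensitized groups did not overlap, leaving out any one library could not turn the order of their means. The ratio of Hba-a2 to Hba-a1 had a mean of 0.737 in both wild-type groups, 0.767 in KO_se and 0.775 in KO_DTH, with KO_se replicate 1 among the wild-type values.

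**Figure D4:**
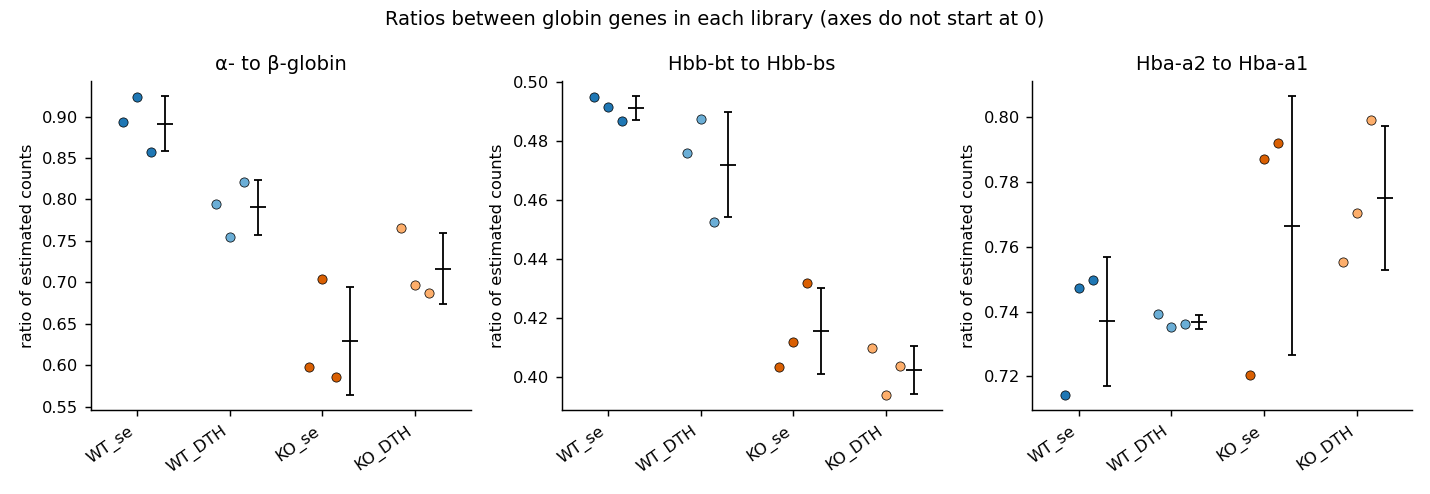
Ratios of estimated counts between globin genes in each library (y axes do not start at 0), with the mean and SD of 3 libraries beside the points. In the middle panel the wild-type libraries lie between 0.452 and 0.495 and the knockout libraries between 0.394 and 0.432.

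Relative to globin, Alas2 kept within 7.88 to 12.2 over all libraries and Bpgm within the wider range of 3.57 to 11.7, both per 1000 globin counts. Alas2 counts per 1000 globin counts were 12.2, 11.6 and 11.96 in WT_se and 11.6, 10.3 and 10.3 in WT_DTH, compared with 7.88, 10.3 and 9.47 in KO_se, and 10.7, 9.40 and 8.61 in KO_DTH. The sensitized knockout libraries lay below the sensitized wild-type ones, and the challenged groups overlapped. Bpgm counts per 1000 globin counts were 5.20, 5.49 and 4.16 in WT_se and 7.50, 9.91 and 7.65 in WT_DTH, without overlap, so Bpgm held a larger amount relative to globin after challenge in wild type. In the knockout the same ratio was 3.57, 3.59 and 7.68 in KO_se and 11.7, 4.21 and 8.51 in KO_DTH, which overlap.

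Across the 12 libraries the 7 genes were closely correlated, as a description only, since the libraries share groups and scaling. Pearson's r of log2 CPM was 0.999 for Hba-a1 and Hba-a2, 0.997 for Hba-a1 and Alas2, 0.913 to 0.959 for Bpgm with the globins and Alas2, and 0.748 to 0.837 for the thinly read Slc4a1 with the others. Other genes were ranked by r with the mean standardised level of the 7 genes, of which Slc4a1 followed that mean least (r = 0.859). Of the 10 named genes most alike, 9 were Rabgap1 (r = 0.926), Ift88 (0.910), Adamts6 (0.902), Neil2 (0.900), Apol11b (0.899), Ppp1cb (0.890), Mettl15 (0.887), Itih5 (0.886) and Zmym6 (0.886), each over 12 libraries. Likeness in r does not mean a like range. Ppp1cb, a catalytic subunit of protein phosphatase 1, ranged from 192 to 231 CPM, and Apol11b from 0.091 to 1.27 CPM.

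Genes of related red cell lists mostly did not pass. The haem synthesis, membrane and enzyme lists also hold Alas2, Slc4a1 and Bpgm, respectively, and their counts and medians include these genes. Of 12 haem synthesis genes tested 2 fell with challenge in wild type, Alas2 and Fech, where 8.97% of all genes fell. The list median was 0.04. Fech, the ferrochelatase that puts iron into protoporphyrin, fell from 35.3 ± 6.70 to 20.4 ± 2.35 CPM (log2 fold change −0.79 ± 0.16, adjusted p = 0.0045), a value that was −0.66 (adjusted p = 0.0736) without the library of highest globin share in each group and −0.42 (adjusted p = 0.0635) with library totals as the only scaling. In the knockout 1 of the 12 fell, where 3.86% of all genes fell. It was Urod, a decarboxylase of the middle of the pathway. Urod fell by 0.36 in log2 (adjusted p = 0.0482), and it lost the threshold with any one library of the 2 groups left out.

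Of 13 red cell membrane and skeleton genes tested 0 passed in any of the 5 comparisons, with a median of −0.33 for challenge in wild type. In that last comparison 8.97% of all genes fell and 9.77% rose. Of 8 erythroid transcription factor genes tested 1 fell with challenge in wild type, where 8.97% of all genes fell. It was Zfpm1, the GATA1 cofactor FOG1 (−0.41 ± 0.13, adjusted p = 0.0497), a call lost in each of 6 fits without a library. Gata1 itself had 1.01 ± 0.0556 CPM in WT_se and 0.890 ± 0.239 CPM in WT_DTH.

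Of 7 red cell enzyme genes tested 2 fell with challenge in wild type, Bpgm and Cat, where 8.97% of all genes fell. Cat, the catalase that removes hydrogen peroxide, fell from 73.2 ± 2.41 to 47.2 ± 0.433 CPM (log2 fold change −0.63 ± 0.06, adjusted p = 5.44e-05), a value that was −0.25 (adjusted p = 0.101) with library totals as the only scaling. Cat also fell with challenge in the knockout, by 0.27 in log2 (adjusted p = 0.0153), and was higher in the knockout when challenged, at 0.36 (adjusted p = 0.0302). Gpx1, a glutathione peroxidase, was higher in the knockout when sensitized, at 0.31 (adjusted p = 0.0347). These 3 calls were lost in 4, 6 and 5 of 6 fits without a library. The shares of all genes called in the same direction were 3.86%, 0.514% and 3.76%, in that order.

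Of 11 reticulocyte genes tested 2 fell with challenge in wild type and 1 in the knockout, where 8.97% and 3.86% of all genes fell. Bnip3l, the receptor that clears mitochondria from maturing red cells, fell by 0.43 ± 0.08 in log2 in wild type (adjusted p = 0.00373) and by 0.45 ± 0.08 in the knockout (adjusted p = 0.00509). With library totals as the only scaling the wild-type value went to −0.048 (adjusted p = 0.811), while the knockout value stayed at −0.43 and missed the threshold (adjusted p = 0.0729). Without the library of highest globin share in each group the knockout value was −0.38 (adjusted p = 0.098). The list median was −0.16 for challenge in wild type and −0.14 in the knockout.

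Genes that clear haemoglobin and iron went the other way in wild type. Of 8 tested 5 rose with challenge there, with a list median of 1.35, where 9.77% of all genes rose. In the knockout 1 of 8 rose, where 5.81% of all genes did, and 2 were negative, with a list median of 0.22. Hp, the plasma haptoglobin that binds free haemoglobin, rose from 9.65 ± 3.82 to 29.8 ± 7.51 CPM (log2 fold change 1.63 ± 0.31, adjusted p = 0.00363). Spic, the transcription factor of iron-recycling macrophages, rose by 2.09 ± 0.44 in log2 (adjusted p = 0.00602), and Slc11a1, a metal transporter of phagosomes, by 1.73 ± 0.31 in wild type (adjusted p = 0.00229) and 1.70 ± 0.31 in the knockout (adjusted p = 0.00424).

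Hmox1, the haem oxygenase that breaks haem down, had 17.7, 17.8 and 15.5 CPM in WT_se and 63.8, 52.8 and 21.2 CPM in WT_DTH. All challenged wild-type libraries were above the sensitized ones, replicate 3 only slightly. It rose by 1.43 ± 0.30 in log2 (adjusted p = 0.00603), a call lost without the library of highest globin share in each group. In the knockout its log2 fold change was 0.01 ± 0.30 (adjusted p = 0.986), and the interaction did not pass (−1.42 ± 0.42, adjusted p = 0.101). Fth1, the ferritin heavy chain and the fifth of the genes that rose, was named after its values were seen (log2 fold change 0.49 ± 0.11, adjusted p = 0.00684), and its call too was lost without those libraries. With the salivary score as covariate none of these wild-type calls passed, but the values moved unequally. Spic went to 0.58 (adjusted p = 0.792) and Hp to 0.88 (adjusted p = 0.577), while Hmox1 stayed at 1.30 (adjusted p = 0.384), Slc11a1 at 1.33 (adjusted p = 0.349) and Fth1 at 0.38 (adjusted p = 0.501). In the same fit Cat stayed at −0.62 (adjusted p = 0.0559), Bnip3l at −0.48 (adjusted p = 0.254) and Fech at −0.63 (adjusted p = 0.449), and Zfpm1 went to 0.054 (adjusted p = 0.953).

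**Figure D5:**
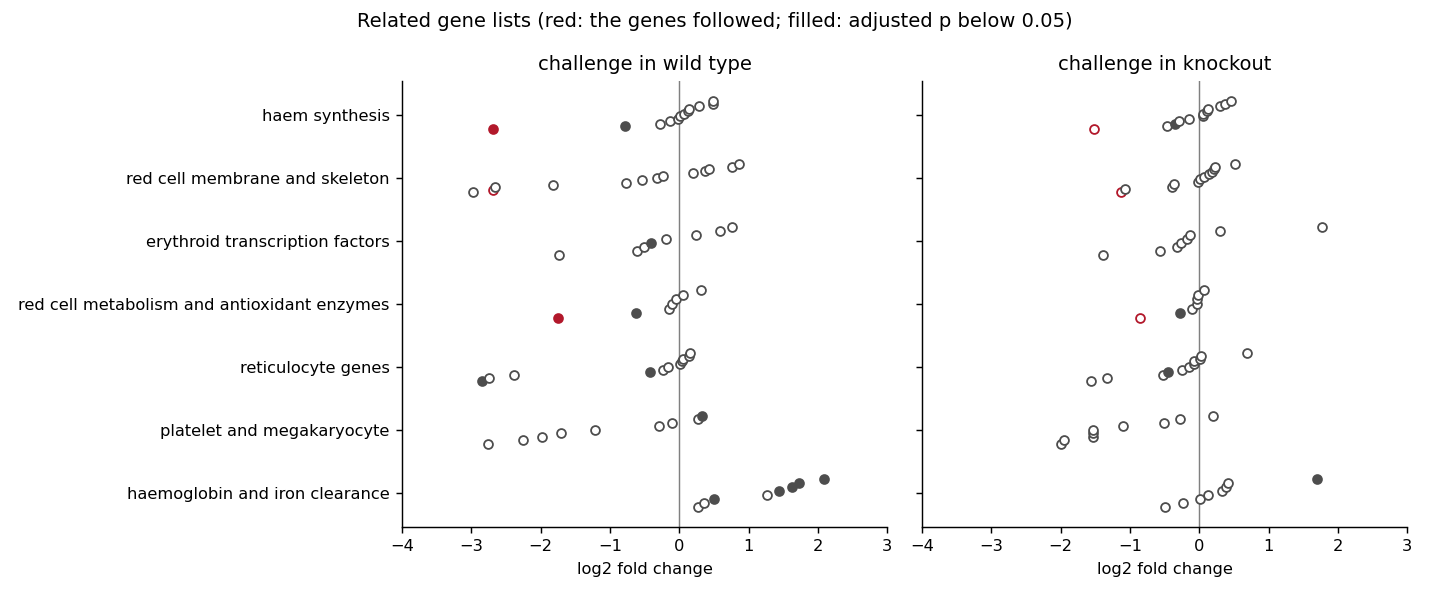
Log2 fold change with challenge (x axis) of the tested genes of 7 related lists, leaving out a gene with a count of 0 throughout either group, in wild type (left) and knockout (right); red points are genes of the 7 followed and filled points passed an adjusted p of 0.05. In wild type 5 of 8 clearance genes are filled on the right side of 0, and most genes of the other lists are unfilled.

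Of the 9 platelet and megakaryocyte genes tested 1 rose with challenge in wild type, where 9.77% of all genes rose. It was Itgb3, an integrin chain found on other cells as well (0.32 ± 0.10, adjusted p = 0.048), a call lost in 5 of 6 fits without a library. Ywhaz, the erythroid target of miR-451a whose seed matches are given above, passed in 0 of 5 comparisons. Its mean was 515 ± 20.9 CPM in WT_se and 511 ± 10.1 in WT_DTH, with 523 ± 10.9 in KO_se, and 500.1 ± 10.3 in KO_DTH (SD, n = 3 each). The knockout minus wild type log2 fold change was 0.02 ± 0.07 when sensitized (adjusted p = 0.901) and −0.03 ± 0.07 when challenged (adjusted p = 0.921).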

How the data were processed

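The 12 RNA-seq libraries, 3 per group, were made from total RNA of mandibular lymph nodes with a directional kit, per the labels. The values are estimated counts per Ensembl gene in the table the authors deposited, all whole numbers. Per the submitters' processing notes the tools were fastp 0.23.2, HISAT2 2.2.1 and StringTie 2.2.1 with GRCm39. Symbols and transcripts came from GENCODE M21 on GRCm38, and sequences from RefSeq on GRCm38.p6. IDs without a symbol held 0.326 to 0.543% of counts.

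Totals were 36946696 to 58405576 per library. Groups were taken from the labels. Whether replicate libraries stand for separate animals is not stated there, so a p-value refers to the spread among libraries, which may be technical. Libraries of a group differed by more than counting noise.

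All 12 libraries entered one edgeR 4.0.16 quasi-likelihood fit with 4 group means, TMM scaling and 8 residual degrees of freedom. Low genes were removed by filterByExpr at a minimum count of 10, leaving 20034. P-values were two-sided and adjusted by Benjamini-Hochberg over all genes tested, with a threshold of 0.05, for 5 contrasts. Log2 CPM used a prior count of 2. The globin share was compared with exact permutation tests. The 4 contrasts between 2 groups were tested on simulated data first, and the interaction was not. The members, the related gene lists and the tests were chosen with earlier results of these data known. All listed members are named in every comparison, and from each related list up to 4 genes by smallest p among those past the threshold. The 10 genes most alike, leaving out predicted genes, were chosen by Pearson's r with the mean standardised log2 CPM of the members. A few genes that these rules choose are not reported here.

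Alternatives were DESeq2 1.42.0 size factors and Wald test, library totals alone, scaling without globin, mitochondrial and salivary genes, no filter on low counts, a mean of at least 50 counts, only the 2 groups compared, the replicate number as a block, a salivary score (mean log2 CPM of the salivary list) as covariate, counts summed over IDs of a symbol, and each library left out. Leaving out the library of highest globin share in each group together, and the ratios between globin copies, were added after the data were seen. R 4.3.3, limma 3.58.1, Python 3.11.15, pandas 2.3.3, numpy 2.4.6, scipy 1.17.1, Biopython 1.88 and matplotlib 3.10.9 were used.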

Additional observations from a re-analysis of the deposited data

How the results depend on the processing

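Over 35 values of the 7 genes in 5 comparisons and 625 refits, 580 kept direction and side of the threshold, 6 lost the threshold, 14 gained it and 25 turned in direction. Only 6 of the 35 values passed in the main fit, all for challenge in wild type. Most of the 580 were thus values that had not passed and again did not. The number of the 7 genes passing was 6 for challenge in wild type and 6 to 6 with a library left out, but 0 with the salivary score. It was 0 for challenge in the knockout, 1 with the DESeq2 Wald test and 0 to 5 with a library left out, and 0 for genotype when sensitized, 0 to 1 with a library left out.

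Counts over all genes moved more. For challenge in wild type 3755 became 7151 by library totals alone, 97 with the salivary score, 1805 without the libraries of highest globin share and 2566 to 3136 with 1 library left out. For challenge in the knockout 1938 became, in that order, 951, 936, 682 and 1039 to 1772, and 2952 with the DESeq2 Wald test. For genotype when sensitized 1035 became 1731, 143, 170 and 369 to 748, and 2280 with the Wald test. For genotype when challenged 120 became 232, 4, 9 and 14 to 471, with 932 by the Wald test and 64 without a filter. For the interaction 422 became 2455, 0, 2 and 0 to 830, with 1238 by the Wald test and 267 without a filter. Library totals alone made the split of higher and lower calls 699 and 252 for challenge in the knockout (1164 and 774 with TMM), 1641 and 90 for genotype when sensitized (754 and 281), 156 and 76 when challenged (103 and 17), and 535 and 1920 for the interaction (334 and 88). Their medians over all genes were 0.01, 0.17, −0.18 and −0.38.

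What a replicate number shared by groups stands for is not stated in the labels. Deviations of same-numbered libraries correlated at −0.10 to 0.14. With 3 libraries per group these values cannot decide whether the numbers pair them. With the replicate block the genes called were 38 for genotype when challenged and 128 for the interaction, and 6 of the 7 erythroid genes passed for challenge in wild type.

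With the salivary score these values turned: for genotype when sensitized Hbb-bs 0.25, for genotype when challenged Hba-a1 −0.062, Hbb-bs −0.0025, Hbb-bt −0.24, Alas2 −0.075 and Slc4a1 −0.48, for the interaction Hbb-bs −0.25, Hbb-bt −0.23 and Slc4a1 −0.40, and for challenge in wild type Zfpm1 0.054. Without the libraries of highest globin share, genotype when challenged gave Hba-a1 −0.33, Hba-a2 −0.24, Hbb-bs −0.092, Hbb-bt −0.30, Alas2 −0.34, Slc4a1 −0.21 and Bpgm −0.059. With 1 library left out it ranged over −0.37 to 0.68 for Hba-a1, −0.28 to 0.76 for Hba-a2, −0.13 to 0.98 for Hbb-bs, −0.34 to 0.73 for Hbb-bt, −0.44 to 0.60 for Alas2 and −0.020 to 0.24 for Bpgm, the lowest each time without KO_DTH replicate 2. Bpgm also gave −0.0014 without WT_DTH replicate 3 and −0.081 by library totals alone, and Hbb-bs ranged over −0.86 to 0.12 for genotype when sensitized, the highest without KO_se replicate 3. The cause of these changes was not tested.

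The globin share difference for challenge in wild type was −1.22 points with mitochondrial and salivary genes out of the total and −1.05 to −0.723 with a library left out. The other differences ranged over −0.835 to −0.230 (challenge in the knockout), −0.561 to 0.0436 (genotype when sensitized) and −0.0509 to 0.116 (genotype when challenged) with a library left out. Depth limits Slc4a1, with 0 to 100 counts per library, and the number of libraries limits the exact tests.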
